A study of Arabidopsis thaliana with 6 samples.

Results

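The 10 genes described here make and export the waxes of the plant cuticle in Arabidopsis thaliana. They are CER1, CER2, CER3, CER4, CER5 (ABCG12), CER6 (KCS6), CER8 (LACS1), CER10, KCS1 and MAH1 (CYP96A15), and they were taken by their gene identifiers from a table of 38194 genes. RNA of whole seedlings was measured in 3 biological replicates of an sqtl1 RNA interference (RNAi) line and in 3 of wild-type Col-0, the background given for both groups. All seedlings were collected 7 days after stratification and grown at 22 °C with 16 h of light and 8 h of dark on diluted MS medium with 1% sucrose, and both groups shared these conditions. The promoter that drives the RNAi construct, its target locus and the number of independent lines are not stated in the labels, and its knockdown was not analysed here.

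Waxes are mixtures of very-long-chain aliphatic compounds that coat the aerial epidermis and limit water loss. Fatty acids are activated to coenzyme A (CoA) esters and lengthened in the endoplasmic reticulum by a fatty acid elongase, in which a ketoacyl-CoA synthase (KCS) sets the chain length and a reductase closes each cycle. The products enter an alkane branch (CER1 and CER3, then MAH1) or an alcohol branch (CER4), and ABCG transporters carry them across the plasma membrane.

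The wax genes did not move as a block. CER8, which activates fatty acids, and CER1, of the alkane branch, were 2.47-fold and 2.44-fold lower in the RNAi line by group means, and CER4 was 1.52-fold lower. CER2, a helper of elongation, was 1.91-fold higher. CER3 was 1.18-fold higher and CER5 and CER6 were 1.21-fold and 1.15-fold lower, and KCS1 and CER10 did not pass the test. MAH1 had no more than an estimated 1 read in any library.

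Levels are RPKM, reads scaled to gene length and library size, as deposited, and can be compared between genes. Differences between groups were tested with limma on log2(RPKM + 1) over 19458 genes whose mean over the 6 libraries reached 1 RPKM, at a Benjamini-Hochberg adjusted p under 0.05. Of the 10 genes, 9 reached that mean, and 2 of these were higher and 5 lower in the RNAi line. Among all genes tested, 25.2% were higher and 27.5% lower, together 52.6%, so 7 of 9 is not far from the share that any gene had in this comparison. The 3 values of the RNAi line did not overlap those of Col-0 for 7 of the 9 genes, against 64.1% of all genes tested. The median log2 fold change of the 9 genes was -0.23 and that of all genes -0.01, and the median size without sign was 0.26 and 0.25 log2 units. Of the 9 genes, 2 passed with a size of 1 log2 unit or more, as did 6.61% of all genes. These were CER8 and CER1, and CER1 fell short of that size without RNAi replicate 3 and lost its call without any 1 of the Col-0 libraries. The count of higher genes was 1 without RNAi replicate 2, Col-0 replicate 1 or Col-0 replicate 3, and the count of lower genes was 3 without Col-0 replicate 1 or Col-0 replicate 2. The replicates are labelled as biological, but whether they came from separate sowings is not given.

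Depth was estimated from the steps that 1 read leaves in low values and lay between 43.8 and 46.9 M reads per library in the RNAi line and between 38.0 and 49.8 M reads in Col-0. The 9 genes rested on an estimated 187 to 9827 reads per library. No member had reads given as mapping to several places. RNAi replicate 3 lay nearest to Col-0 in mesophyll markers, with a summed level of 28690 RPKM against 18140 RPKM in the lowest RNAi library. In Col-0 these 5 genes summed to between 40780 and 43090 RPKM.

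**Figure D1:**
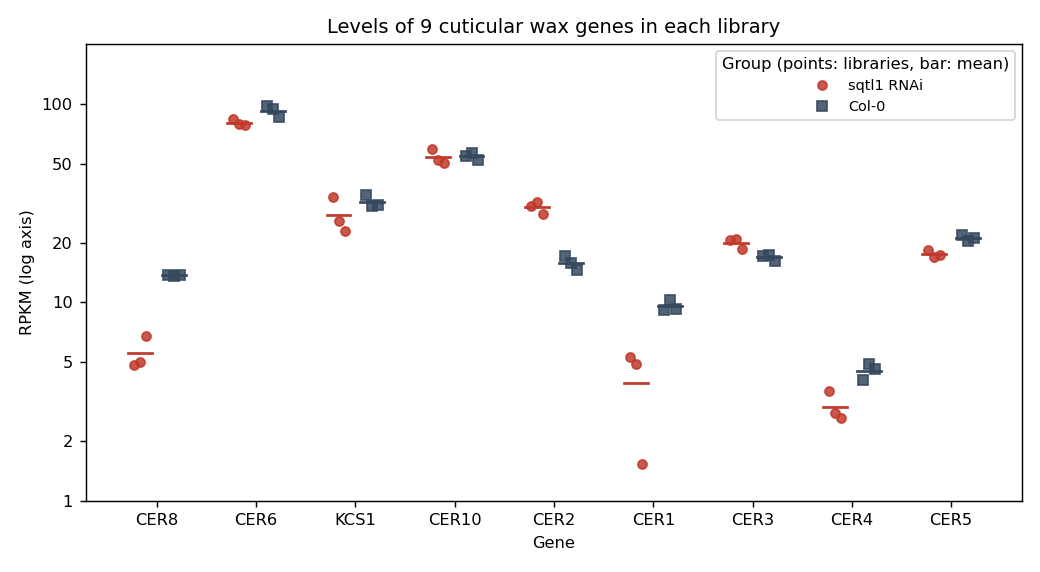
RPKM (log axis) of 9 wax genes in each of 3 sqtl1 RNAi libraries (circles) and 3 Col-0 libraries (squares), with bars at the group means and MAH1 left out because it is at or near 0. The 3 values of each group do not overlap for 7 of the 9 genes (all but KCS1 and CER10), and the lowest CER1 value, 1.53 RPKM, is that of RNAi replicate 3.

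The upstream windows of 3 members are shown because CER1 and CER8 had the largest decreases and CER6 the highest level. Each is the 250 bases before the start of the gene record in TAIR10.1 (RefSeq), 5′ to 3′ on the strand of the gene, with capitals at the core of the abscisic acid response element (ACGTG, or its reverse complement CACGT). The CER1 window is chr1:418166-418415 on the plus strand, the CER8 window chr2:19392247-19392496 on the plus strand and the CER6 window chr1:25715025-25715274 on the minus strand.
CER1: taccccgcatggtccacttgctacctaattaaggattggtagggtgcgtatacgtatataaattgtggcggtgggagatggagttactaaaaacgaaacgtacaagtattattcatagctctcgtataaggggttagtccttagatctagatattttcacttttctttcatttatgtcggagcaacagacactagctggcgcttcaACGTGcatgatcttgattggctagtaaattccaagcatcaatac
CER8: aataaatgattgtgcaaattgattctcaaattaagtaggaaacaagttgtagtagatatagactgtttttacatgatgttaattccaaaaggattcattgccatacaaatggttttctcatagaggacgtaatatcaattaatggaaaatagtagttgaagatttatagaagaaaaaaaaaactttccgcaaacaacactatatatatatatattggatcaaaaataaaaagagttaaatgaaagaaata
CER6: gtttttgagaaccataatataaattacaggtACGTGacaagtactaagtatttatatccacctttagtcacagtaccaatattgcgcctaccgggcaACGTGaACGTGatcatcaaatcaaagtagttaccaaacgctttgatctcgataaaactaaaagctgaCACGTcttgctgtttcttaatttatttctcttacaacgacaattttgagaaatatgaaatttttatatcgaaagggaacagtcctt
The CER6 window held 4 copies of this core and the CER1 window 1 copy, at 44 to 40 bases before the gene start, whereas the CER8 window held none. The core was found in 4 of the 10 member windows (CER1, CER2, CER4 and CER6) and in 22.9% of the windows of 27443 nuclear protein-coding genes. Of these, CER1, CER4 and CER6 were lower and CER2 higher. Of the genes without the core, CER5 and CER8 were lower and CER3 higher. A link between the core and the direction of change was not tested. The CER2 match, at 58 to 54 bases before the gene start, lies outside the 19 exon-free bases next to that gene. The L1 box of epidermal genes (TAAATGCA or TAAATGTA), the GCC box (GCCGCC) and a MYB site (TAACTG) were searched on both strands and were in none of the 10 windows. They were in 4.49%, 1.87% and 8.12% of all windows. The CER2 window is not shown, because annotated exons reach to within 19 bases of the gene start.

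Activation of fatty acids starts with CER8 (LACS1, AT2G47240, chromosome 2, 19392497 to 19397907), a long-chain acyl-CoA synthetase used for wax and cutin. CER8 had 4.81, 4.98 and 6.79 RPKM in RNAi replicates 1 to 3, against 13.7, 13.5 and 13.7 RPKM in Col-0. Every RNAi value was below every Col-0 value, and replicate 3 of the RNAi line lay closest to Col-0. The log2 fold change was -1.18 (SE 0.11, limma adjusted p = 0.000567), and it passed under each of the 16 alternatives tried. LACS4, another acyl-CoA synthetase gene, did not pass, at a log2 fold change of -0.05 (95% interval -0.17 to 0.06). The ratio of CER8 to LACS4 within a library was 0.0742 ± 0.0144 in the RNAi line and 0.177 ± 0.00164 in Col-0 (SD, n = 3 each).

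Elongation is represented by 4 members. CER6 (KCS6, AT1G68530, chromosome 1, 25712414 to 25715024), the main condensing enzyme for wax chains, had the highest level of the 10 genes in both groups. It was at 83.9, 78.7 and 78.6 RPKM in the RNAi line, against 97.2, 93.7 and 86.2 RPKM in Col-0. The groups did not overlap, with RNAi replicate 1 and Col-0 replicate 3 closest to each other. The log2 fold change of -0.20 (SE 0.06, limma adjusted p = 0.0384) lost its call under 9 of the 16 alternatives, with adjusted p between 0.0528 and 0.688. It was -0.03 when libraries were rescaled to an equal total, a step that also moved the median of all genes to 0.14. Without RNAi replicate 2 or 3, or without Col-0 replicate 1 or 2, the adjusted p of CER6 was 0.122, 0.0591, 0.132 and 0.122.

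KCS1 (AT1G01120, chromosome 1, 57164 to 59215), a second condensing enzyme, had 33.9, 25.6 and 23.0 RPKM in the RNAi line, against 34.6, 30.5 and 31.0 RPKM in Col-0. RNAi replicate 1 lay within the Col-0 range and the other two RNAi values lay below it. The log2 fold change was -0.23 (95% interval -0.56 to 0.10, limma adjusted p = 0.205). Without RNAi replicate 1 it was -0.39 with an adjusted p of 0.00579.

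CER10 (AT3G55360, chromosome 3, 20520930 to 20523098), the enoyl-CoA reductase that closes each elongation cycle, had 59.4, 52.3 and 50.3 RPKM in the RNAi line, against 54.6, 56.4 and 51.9 RPKM in Col-0. The groups overlapped, and the log2 fold change was -0.01 (95% interval -0.19 to 0.17, limma adjusted p = 0.916). The gene overlaps its antisense neighbour AT3G55350 over 27 bases. The labels do not say whether reads were counted by strand.

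CER2 (AT4G24510, chromosome 4, 12660687 to 12662656) encodes a protein of the BAHD acyltransferase family that lets the elongase reach the longest wax chains. CER2 had 30.4, 32.2 and 28.0 RPKM in the RNAi line, against 17.1, 15.8 and 14.6 RPKM in Col-0. The groups were far apart for their spread, with a log2 fold change of 0.89 (SE 0.08, limma adjusted p = 0.000389), and the call held under each of the 16 alternatives. CER2 overlaps the antisense gene AT4G24520 over 96 bases at between 47.8 and 57.2 RPKM in the RNAi line and between 57.1 and 59.9 RPKM in Col-0. It also overlaps an antisense noncoding gene, AT4G07275, over 316 bases, which did not exceed 0.02 RPKM in the RNAi line and 0.09 RPKM in Col-0.

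The gene most like CER2 in function moved the other way. CER26 (AT4G13840), a homologue of CER2 known for leaf wax elongation, had 6.71, 5.54 and 6.81 RPKM in the RNAi line, against 18.0, 15.5 and 15.7 RPKM in Col-0. Its log2 fold change was -1.25 (SE 0.09, limma adjusted p = 0.000276). CER26-LIKE (AT3G23840) was at 0.850 ± 0.340 RPKM in the RNAi line and 1.46 ± 0.119 RPKM in Col-0. Its call (limma adjusted p = 0.0368) was lost without any 1 of 5 libraries (adjusted p 0.0734 to 0.115). Of the libraries left out in turn, it was kept only without RNAi replicate 3. It was also lost with the equal total (adjusted p = 0.0594) and with the replicate number as a block (adjusted p = 0.0698). The ratio of CER2 to CER26 was 4.53, 5.81 and 4.11 in the RNAi libraries, against 0.947, 1.02 and 0.931 in the Col-0 libraries. The 3 genes together summed to 37.7, 38.4 and 36.0 RPKM in the RNAi line, against 36.6, 32.8 and 31.7 RPKM in Col-0, with overlapping ranges. This ratio was chosen after the values were seen and has no test.

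In the alkane branch, CER1 and CER3 are known to act together with a cytochrome b5. CER1 (AT1G02205, chromosome 1, 418416 to 422579) had 5.32, 4.90 and 1.53 RPKM in the RNAi line, against 9.11, 10.3 and 9.25 RPKM in Col-0. All RNAi values were lower than all Col-0 values, and replicate 3 was lowest by a wide margin. This is the reverse of CER8, for which replicate 3 was nearest to Col-0. The log2 fold change was -1.21 (SE 0.34, limma adjusted p = 0.0228) and -0.79 without RNAi replicate 3 (adjusted p = 0.000295). The call was lost without Col-0 replicate 1, 2 or 3 (adjusted p = 0.064, 0.0725 and 0.0644) and with no filter on low values (adjusted p = 0.0822). The coefficient of variation of CER1 was 53.0% in the RNAi line and 6.69% in Col-0.

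CER3 (AT5G57800, chromosome 5, 23420184 to 23424117) moved slightly upward. It had 20.5, 20.8 and 18.5 RPKM in the RNAi line, against 17.2, 17.2 and 16.2 RPKM in Col-0. The groups did not overlap, and the log2 fold change was 0.23 (SE 0.06, limma adjusted p = 0.0184). The call was lost without RNAi replicate 2, Col-0 replicate 1 or Col-0 replicate 3 (adjusted p = 0.071, 0.0504 and 0.0757). The ratio of CER1 to CER3 was 0.259, 0.236 and 0.0827 in the RNAi libraries, against 0.531, 0.597 and 0.572 in the Col-0 libraries, which is 2.94-fold lower by means. This ratio too was chosen after the values were seen. The CER1 homologue AT1G02190 stayed at 0.12 RPKM or less in every library.

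MAH1 (AT1G57750, chromosome 1, 21383812 to 21385709), the cytochrome P450 that turns alkanes into secondary alcohols and ketones and is known from stems, was listed at 0, 0.01 and 0 RPKM in the RNAi line, against 0 RPKM in each Col-0 library. A count of 0 allows up to 3 reads, which is 0.0327 to 0.0459 RPKM per library here. MAH1 was therefore not detectable at this depth in either group and was not tested. Such limits cover counting error only.

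The alcohol branch has 1 member. CER4 (AT4G33790, chromosome 4, 16204096 to 16207956), the fatty acyl-CoA reductase that makes primary alcohols, had 3.59, 2.76 and 2.60 RPKM in the RNAi line, against 4.04, 4.91 and 4.61 RPKM in Col-0. The groups did not overlap, and the log2 fold change was -0.48 (SE 0.11, limma adjusted p = 0.012). It passed under all 15 alternatives in which it could be tested. The mean of CER1, CER3 and MAH1 divided by CER4 was 2.40, 3.10 and 2.57 in the RNAi line, against 2.17, 1.87 and 1.84 in Col-0. Each RNAi ratio exceeded each Col-0 ratio (exact two-sided permutation p = 0.1, the smallest that 3 against 3 libraries can give). CER3 is the larger term of that mean, so the ratio does not follow CER1.

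CER5 (ABCG12, AT1G51500, chromosome 1, 19097712 to 19101265), the ABC transporter that exports wax, had 18.2, 16.8 and 17.3 RPKM in the RNAi line, against 21.9, 20.3 and 21.0 RPKM in Col-0. The groups did not overlap, and the log2 fold change was -0.26 (SE 0.05, limma adjusted p = 0.00732). With libraries rescaled to an equal total it was -0.10 (adjusted p = 0.163), against a median of all genes of 0.14.

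**Figure D2:**
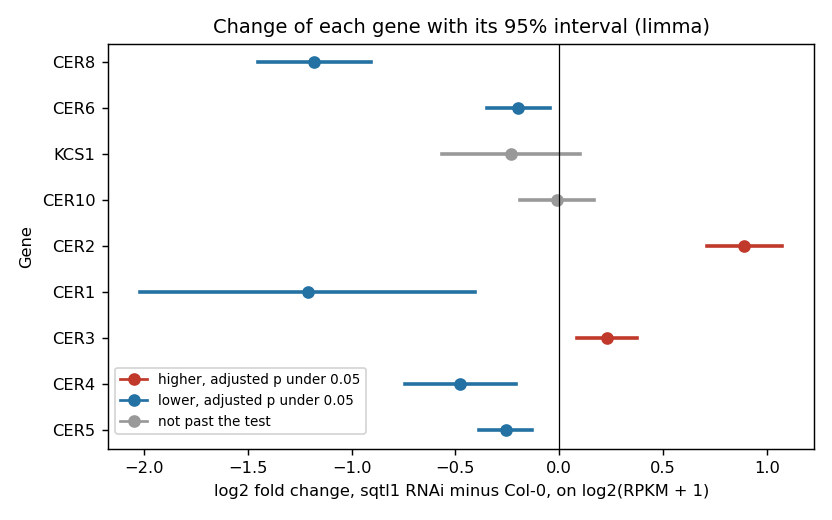
Log2 fold change of each tested wax gene, sqtl1 RNAi minus Col-0 on log2(RPKM + 1), with its 95% interval from limma; colours give the direction of genes past the test and grey marks those not past it. CER8 at -1.18 and CER2 at 0.89 have short intervals, whereas that of CER1 runs from -2.02 to -0.40.

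The order of levels changed in the middle of the range. In the RNAi line, it ran CER6 (80.4 RPKM), CER10 (54.0), CER2 (30.2), KCS1 (27.5), CER3 (19.9), CER5 (17.5), CER8 (5.53), CER1 (3.92) and CER4 (2.98). In Col-0, the order ran CER6 (92.4 RPKM), CER10 (54.3), KCS1 (32.0), CER5 (21.1), CER3 (16.9), CER2 (15.8), CER8 (13.7), CER1 (9.55) and CER4 (4.52). CER2 was at rank 3 in the RNAi line and at rank 6 in Col-0. Ranges of neighbours overlapped for CER2 with KCS1, CER8 with CER1 and CER1 with CER4 in the RNAi line, and only for CER3 with CER2 in Col-0. The summed level of the 10 genes was 260.1, 239.0 and 226.5 RPKM in the RNAi line, against 269.3, 262.6 and 248.5 RPKM in Col-0, and these ranges overlapped. CER6 made up 33.2% of that sum in the RNAi line and 35.5% in Col-0.

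**Figure D3:**
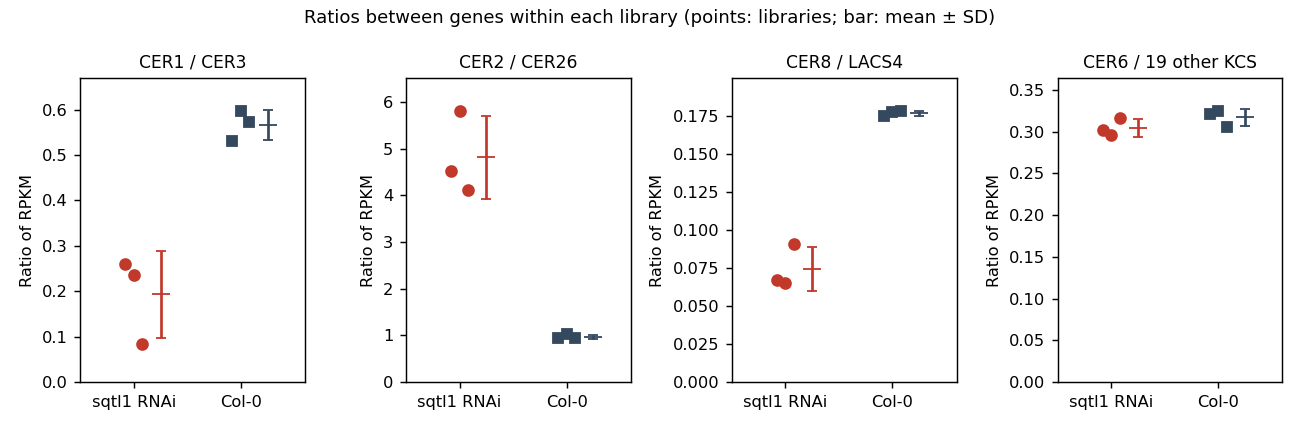
Ratio of RPKM between genes within each library, for 3 sqtl1 RNAi libraries (circles) and 3 Col-0 libraries (squares), with mean and SD (n = 3) beside them. The ratio of CER2 to CER26 averages 4.81 in the RNAi line and 0.964 in Col-0, and that of CER1 to CER3 averages 0.193 in the RNAi line and 0.567 in Col-0, whereas the ratio of CER6 to the 19 other KCS genes overlaps between groups.

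Beyond the 10 members, 54 further genes of wax synthesis, export and regulation were examined, of which 43 were tested. Of these, 5 were higher and 14 lower, and the median log2 fold change was -0.09. The called share was 44.2%, against 52.6% of all genes. The counts moved with single libraries. Higher genes numbered 2 without RNAi replicate 2, Col-0 replicate 2 or Col-0 replicate 3, and 12 without RNAi replicate 3. Lower genes numbered 9 without RNAi replicate 2, 8 without Col-0 replicate 1, 7 without Col-0 replicate 2 and 8 without Col-0 replicate 3.

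Of the 19 other KCS genes, 13 were tested, and 1 was higher and 5 were lower. The called share was 46.2%, against 52.6% of all genes. Without RNAi replicate 3 there were 4 higher, and without RNAi replicate 2 or any 1 of the Col-0 libraries 3 lower. KCS19 (AT5G04530) had 35.1, 30.1 and 22.7 RPKM in the RNAi line, against 12.2, 11.3 and 12.03 RPKM in Col-0, a log2 fold change of 1.22 (SE 0.15, limma adjusted p = 0.00107). KCS8 (AT2G15090) was at 27.8 ± 1.22 RPKM in the RNAi line and 48.5 ± 4.55 RPKM in Col-0 (log2 fold change -0.78, limma adjusted p = 0.000592). KCS5 (AT1G25450), also known as CER60 and the closest homologue of CER6, was at 7.13 ± 0.698 RPKM in the RNAi line and 11.8 ± 0.199 RPKM in Col-0 (log2 fold change -0.65, limma adjusted p = 0.000824). KCS2 fell to 9.02 ± 2.12 RPKM in the RNAi line, against 12.8 ± 0.261 RPKM in Col-0 (limma adjusted p = 0.0251), but lost its call without RNAi replicate 2 or without any 1 of the Col-0 libraries (adjusted p 0.0686 to 0.0844), and with the equal total (adjusted p = 0.0962). All 21 KCS genes summed to 395.9, 370.5 and 349.6 RPKM in the RNAi line, against 434.5, 412.1 and 398.8 RPKM in Col-0. These ranges did not overlap, but the sums were not rescaled for library totals. The totals of RPKM times length were also lower in the RNAi line (926820 to 979309, against 1051600 to 1071469 in Col-0). Scale factors from the median ratio of genes were close to level, at 0.984 to 1.003 in the RNAi line and 1.002 to 1.006 in Col-0. Whether the lower KCS sum goes beyond the lower totals was not tested. The seed enzyme gene KCS18 (FAE1) was at 0 RPKM in every library.

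Other core elongation genes moved little. KCR1, the ketoacyl-CoA reductase of the elongase, had a log2 fold change of 0.04 (95% interval -0.19 to 0.27), and PAS2, its dehydratase, one of 0.12 (95% interval -0.02 to 0.27). ACC1, the cytosolic acetyl-CoA carboxylase that supplies malonyl-CoA, was at 21.0 ± 0.381 RPKM in the RNAi line and 23.6 ± 0.729 RPKM in Col-0 (log2 fold change -0.16, limma adjusted p = 0.0243). Its call was lost without RNAi replicate 2, Col-0 replicate 1 or Col-0 replicate 2 (adjusted p = 0.0729, 0.0887 and 0.0907). With libraries rescaled to an equal total its log2 fold change was -0.0042 (adjusted p = 0.952). The call was also lost with the replicate number as a block (adjusted p = 0.0576).

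Among precursor, partner and ester genes, 1 of 6 tested was higher and none lower (16.7% called, against 52.6% of all genes). The cytochrome b5 gene CYTB5-E was at 322.5 ± 6.34 RPKM in the RNAi line and 278.6 ± 9.25 RPKM in Col-0 (log2 fold change 0.21, limma adjusted p = 0.0267). That call was lost without RNAi replicate 2 or without any 1 of the Col-0 libraries (adjusted p 0.0609 to 0.115). It was also lost with the replicate number as a block (adjusted p = 0.103). CYTB5-B, a partner of CER1, did not pass, at a log2 fold change of 0.12 (limma adjusted p = 0.084). The wax ester synthase gene WSD1 did not exceed 0.03 RPKM.

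Of the 3 further export genes, 1 was higher and none lower (33.3% called, against 52.6% of all genes). The higher gene was LTPG1, which encodes a lipid transfer protein anchored at the cell surface. It had 144.8, 134.6 and 134.2 RPKM in the RNAi line, against 101.7, 96.8 and 87.4 RPKM in Col-0 (log2 fold change 0.53, SE 0.07, limma adjusted p = 0.0017). LTPG2 and ABCG11, the transporter partner of CER5, had log2 fold changes of 0.32 and 0.29 and did not pass (adjusted p = 0.0579 and 0.0638). Without RNAi replicate 3 all 3 were past the test, and without Col-0 replicate 1 there were 2. Over all genes, the count of higher genes was also larger without RNAi replicate 3, at 5515 against 4894.

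Of 18 regulators, 15 were tested, and 2 were higher and 6 lower (53.3% called, against 52.6% of all genes). With 1 library left out, counts of higher genes lay between 0 and 3 and of lower genes between 3 and 7. Both lowest counts came without Col-0 replicate 2 or Col-0 replicate 3, and no regulator was higher without RNAi replicate 2. MYB106, a MIXTA-like activator of cuticle genes, had 0.05, 0.06 and 0.06 RPKM in the RNAi line, against 2.43, 2.64 and 2.35 RPKM in Col-0 (log2 fold change -1.72, limma adjusted p = 7.97e-05). This is an estimated 4 to 5 reads per RNAi library and 154 to 180 reads per Col-0 library. MYB106 is 1 of the 6 lower regulators and met the filter on the mean only through Col-0, so its call is not separate support. MYB16, the other MIXTA-like gene, was at 5.06 ± 0.243 RPKM in the RNAi line and 8.89 ± 0.39 RPKM in Col-0 (log2 fold change -0.71, limma adjusted p = 0.000351). SHN2, an activator of cuticle genes that was named after its values were seen, had 0.01, 0.01 and 0.03 RPKM in the RNAi line, against 1.71, 1.69 and 1.5 RPKM in Col-0. It missed the mean of 1 RPKM and was not tested. It was at least 24.0-fold lower in the RNAi line when set at 3 reads per library.

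DEWAX (AT5G61590), an AP2/ERF factor known to repress wax genes including CER1, was itself lower. It had 64.3, 90.2 and 108.3 RPKM in the RNAi line, against 168.0, 172.0 and 177.9 RPKM in Col-0 (1.97-fold lower, limma adjusted p = 0.00415). The wax activators MYB96 and MYB94 had log2 fold changes of -0.11 and 0.03 and did not pass (95% intervals -0.29 to 0.07 and -0.11 to 0.17). MYB30, another activator, and MIEL1, a ubiquitin ligase that acts on it, had log2 fold changes of 0.24 and 0.34 (limma adjusted p = 0.0183 and 0.0206). Both calls were lost without RNAi replicate 2, Col-0 replicate 2 or Col-0 replicate 3, and that of MIEL1 also without Col-0 replicate 1 (adjusted p 0.0599 to 0.0748).

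**Figure D4:**
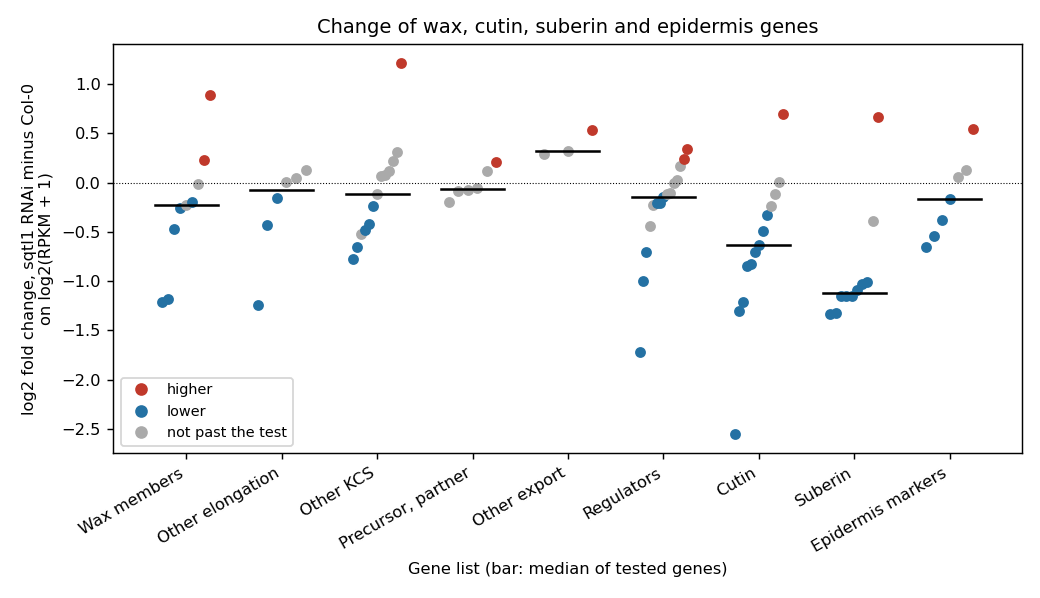
Log2 fold change of each tested gene, sqtl1 RNAi minus Col-0 on log2(RPKM + 1), by gene list, with colours for direction past the test and bars at list medians. The wax members spread from -1.21 to 0.89 around a median of -0.23, and the cutin and suberin lists have medians of -0.63 and -1.12.

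The wax members were set beside the genes of cutin, the polyester of the same cuticle, and of suberin, its root counterpart. Of 13 cutin genes tested, 9 were lower and 1 higher (76.9% called), and their median log2 fold change was -0.63. Of 10 suberin genes, 8 were lower and 1 higher (90.0% called), with a median of -1.12. Of all genes tested, 27.5% were lower and 25.2% higher, together 52.6%. Both medians lay further from 0 than the -0.23 of the wax members, but the difference between the lists was not tested. The other 2 cutin genes, CYP86A7 and CYP77A6, missed the mean of 1 RPKM and are not in these counts. They had means of 0.0033 and 0.117 RPKM in the RNAi line, against 0.627 and 1.66 RPKM in Col-0. DCR, a cutin acyltransferase gene, was at 4.58 ± 0.582 RPKM in the RNAi line and 12.7 ± 0.652 RPKM in Col-0. GPAT6, a cutin acyltransferase of another family, was at 3.45 ± 1.33 RPKM in the RNAi line and 9.06 ± 0.557 RPKM in Col-0. The listed cutin gene AT5G33370 had 0.02, 0 and 0.01 RPKM in the RNAi line, against 5.11, 4.99 and 4.71 RPKM in Col-0. This is at least 122-fold lower when set at 3 reads per library. AT5G33370 is 1 of the 9 lower cutin genes and met the filter on the mean only through Col-0, so its call is not separate support. BDG1, an extracellular hydrolase gene, was the higher cutin gene, at 11.6 ± 1.64 RPKM in the RNAi line and 6.78 ± 0.719 RPKM in Col-0. Among suberin genes, FAR1, a reductase of the same family as CER4, was higher, at 27.3 ± 1.72 RPKM in the RNAi line and 16.9 ± 1.80 RPKM in Col-0. The suberin transporter genes ABCG2 and ABCG20 were lower, at 4.02 ± 1.06 and 3.35 ± 0.803 RPKM in the RNAi line, against 11.5 ± 0.230 and 9.76 ± 0.713 RPKM in Col-0. FAR5, a relative of FAR1, was lower, at 4.15 ± 1.15 RPKM in the RNAi line and 10.3 ± 1.32 RPKM in Col-0.

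Wax is made in the epidermis, and of 7 epidermal marker genes 4 were lower and 1 higher, against 52.6% of all genes called in either direction. ATML1, PDF1, HDG2 and LTP1 were lower and HDG1 was higher, and PDF2 and ACR4 did not pass. The summed level of all 7 was 399.4 to 533.1 RPKM in the RNAi line and 641.6 to 685.5 RPKM in Col-0, most of it from LTP1. PDF1 was at 38.6 ± 5.19 RPKM in the RNAi line and 60.8 ± 1.70 RPKM in Col-0, whereas HDG1 was at 9.01 ± 0.540 RPKM in the RNAi line and 5.84 ± 0.285 RPKM in Col-0. The factor genes ATML1 and PDF2 had log2 fold changes of -0.17 and 0.06, of which the first passed (limma adjusted p = 0.0414). The count of lower epidermal genes was 1 without Col-0 replicate 1 or 2 and 2 without Col-0 replicate 3, RNAi replicate 2 or RNAi replicate 3. All 5 mesophyll markers, the photosynthesis genes RBCS1A, RCA, LHCB1.1, LHCB1.3 and LHCA1, were lower, against 27.5% of all genes. That count was 1 without RNAi replicate 2, Col-0 replicate 1 or Col-0 replicate 3, and 2 without Col-0 replicate 2. It was also 1 with the replicate number as a block. Guard cell markers summed to 5.11 to 9.09 RPKM in the RNAi line and 10.2 to 11.6 RPKM in Col-0, and 2 of the 4 tested were lower, with 1 lower when Col-0 replicate 3 was left out and 4 when RNAi replicate 3 was. Root markers summed to 100.8 to 102.9 RPKM in the RNAi line and 120.1 to 138.9 RPKM in Col-0, with 3 higher and 2 lower of 7 tested. Most of that sum was CASP1, at 57.0 to 59.3 RPKM in the RNAi line and 80.7 to 97.5 RPKM in Col-0. The sum of the 7 other root genes was higher, at 42.5 to 45.5 RPKM in the RNAi line and 38.4 to 41.4 RPKM in Col-0. These genes were split. SCR, SHR and WER were higher and GL2 was lower (1.19 RPKM in the RNAi line, 3.45 RPKM in Col-0). In whole seedlings, the organ in which these listed root genes changed cannot be told. WOX5 and MYB36 did not pass, and PLT1 was not tested. The root counts also moved with single libraries (2 higher without RNAi replicate 2, Col-0 replicate 1 or Col-0 replicate 3; 3 lower without RNAi replicate 3). Shoot and root markers were thus present in both groups, as the label of whole seedlings states. Fewer cells of a type and less RNA per cell cannot be told apart in whole seedlings, and the part of these markers in the wax results was not tested.

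Patterns most like those of 2 members were sought among 13925 other genes averaging 5 RPKM or more, by Pearson correlation over the 6 libraries, which share the 2 group levels. For CER1, AT1G28090, annotated as a polynucleotide adenylyltransferase family gene, came first (r = 0.995). It had 10.5, 10.4 and 9.09 RPKM in the RNAi line, against 11.1, 11.2 and 11.0 RPKM in Col-0. The noncoding RNA gene AT5G38005 (r = 0.991) and AT4G33780 (r = 0.991) followed, and all 3 genes had their lowest value in RNAi replicate 3, as CER1 did. For CER6, the lipid transport family gene AT4G01883 (r = 0.992), ATG18H (r = 0.988) and ATKDSA2 (r = 0.987) came first. Correlations above 0.95 were found for 70 genes with CER1 and for 78 with CER6.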

How the data were processed

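RNA of whole seedlings was sequenced from 3 sqtl1 RNAi and 3 Col-0 replicates. Per the labels' protocols, poly(A) RNA was made into strand-marked TruSeq libraries and read as pairs. The submitters' processing notes list Trimmomatic 0.39, Bowtie2 2.2.6 and the build TAIR10, without roles. The counter, its gene set and its use of strand are not given there. The authors deposited RPKM values to 2 decimals and a gene length. A further deposited column holds the share of multiply mapped reads as a fraction, per the file headers. Of 38199 lines, 5 named no gene and were left out.

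The test was limma 3.58.1 (R 4.3.3) applied to log2(RPKM + 1) for genes averaging 1 RPKM or more, its variance prior following the mean. Fold changes on this scale understate the change of low genes. Some genes with a mean under 1 RPKM in the RNAi line met the filter through Col-0, among them MYB106, AT5G33370, CER26-LIKE and KAT1. Their calls are not separate support for a difference. Ratios are of mean RPKM, and errors are SD over 3 libraries. The sum of RPKM times length lay between 926820 and 979309 per RNAi library and between 1051600 and 1071469 per Col-0 library. Scale factors from the median ratio of genes lay between 0.984 and 1.003 in RNAi libraries and between 1.002 and 1.006 in Col-0 libraries. By that measure the deposited values were already close to level between libraries, and the equal total is an alternative scaling. Depth was estimated in genes under 0.4 kb, where 61.8% to 68.8% of values of 1 to 6 reads lay within 0.0055 RPKM of a step after an offset of 0.25 reads. The test was checked on simulated data. It recovered 7 of 50 changes of 1.25-fold, 37 of 50 of 1.5-fold and 48 of 48 of 2-fold. Of its 159 calls there, 17 were false. The called changes of CER3, CER5 and CER6 were smaller than 1.25-fold. Here 10240 of 19458 genes were called, against 159 of 19099 in that check. The simulated libraries had the same depth and the same spread setting for every gene, whereas spread here differed between genes and groups. Whether the shares of recovered changes and of false calls in that check hold here was not tested.

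The members and lists were chosen with earlier results of these data known. The rule for named genes took all 10 members, of each other list up to 3 genes past the test in each direction with the largest change, and the 3 genes most like CER1 and CER6. Other genes named were chosen after their values were seen. All 115 listed identifiers matched the RefSeq gene table of TAIR10.1 by locus tag, which gave symbols, coordinates and upstream windows. The alternatives were 2 other pseudocounts, 2 other filters, 3 other scalings, 2 other variance models, the replicate number as a block, and each library left out in turn.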

Additional observations from a re-analysis of the deposited data

How the results depend on the processing

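The calls of CER2, CER8 and CER4 held under every alternative in which they could be tested. None of the 9 tested members changed direction while called. The count of lower members was 5, and it was 3 with no filter on low values and 3 with libraries rescaled to an equal total. With 1 library left out, it ranged from 3 to 6 and that of higher members from 1 to 2. The median log2 fold change of the members was -0.071 with the equal total, and -0.29 to -0.18 with 1 library left out. The alkane to alcohol difference ranged from 0.35 to 0.53 log2 units with 1 library left out. Of the 54 further wax genes, 12 were higher and 7 lower with the equal total, 14 were higher and 21 lower with array weights, and with 1 library left out 2 to 12 were higher and 7 to 16 lower. Over all genes, 4894 were higher and 5346 lower, against 7738 and 3503 with the equal total, and 7717 higher and 7836 lower with array weights; with 1 library left out, 3515 to 5515 were higher and 3975 to 6061 lower. The cause of these shifts was not tested, apart from the equal total, which raised every RNAi value relative to Col-0. Replicate numbers are shared by both groups, but deviations of same-numbered libraries correlated at -0.0642, 0.0928 and 0.0198, so they were not read as pairs. With the replicate block, 9 of the further wax genes were lower, against 14, and CER6 had an adjusted p of 0.0585. The depth limits MAH1, which lay below what 3 reads allow.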
